A study of Bos taurus with 20 samples.

Results

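The genes described here are the collagens and a set of other extracellular matrix genes in the longissimus dorsi, the long back muscle, of 20 bulls. A gene was taken in when the platform annotation gave a probe set a single symbol, and that symbol was either a numbered collagen chain (COL, a number, A, a number) or 1 of 21 listed matrix genes. The listed genes were those of fibronectin, the proteoglycans lumican, decorin, biglycan and fibromodulin, tenascin C, SPARC, elastic fibre proteins, laminins, nidogen 1, lysyl oxidase, MMP2 and its inhibitors, and a few others. This gave 43 of the 9155 named genes on the array, with 86 probe sets between them, and the brightest probe set stood for each gene. LAMA2 was the 1 listed gene that no probe set carried by name. For 36 of the 43 genes that probe set was bright enough to be tested, and the other 7 (COL4A4, COL11A2, COL13A1, COL18A1, COL26A1, LOX and POSTN) had means below the filter on dim probe sets, so no change is given for them.

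Muscle fibres lie in a mesh of connective tissue. Fibrillar collagens of types I, III and V form its cables, basement membranes of type IV collagen, laminin and nidogen coat each fibre, and type VI collagen links the layers. Small leucine-rich proteoglycans such as decorin set the diameter of the fibrils, and the metalloproteinase MMP2 and the TIMP inhibitors govern turnover. Fibroblasts make most of this matrix, and in fattening cattle marbling fat grows within it.

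All 20 bulls were Holstein x Charolais F2 crosses, 10 labelled high and 10 labelled low for intramuscular fat (IMF), and total RNA of each was hybridised to 1 Affymetrix cattle GeneChip. The study compared the muscle of the 2 IMF groups. The animal numbers in the titles come with and without a leading S, 10 of each, with 5 high and 5 low IMF bulls in each set. What the letter stands for is not in the labels, and these sets are called the S series and the other series below. Age and diet were not used here.

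The 2 series differed across the whole array. The medians of the 20 arrays lay between 51.6 and 67.6 intensity units. The bioB hybridisation control, a bacterial RNA added in a fixed amount, read 239 to 395 in the S series and 445 to 532 in the other series, without overlap. The cre control read 12249 to 16107 against 16313 to 17332. Albumin, a liver gene, exceeded 2000 intensity units on 4 arrays, those of high IMF 6, 8 and 10 in the S series and low IMF 3 in the other series. Its brightest probe set on each read 4871, 11888.5, 59753 and 83307 units, in that order. The summed signal of the 8 liver markers on the array took 1 probe set per gene and so can lie below these values. That sum ran from 1777 to 29177 units in the S series and from 1150 to 26662 in the other. The 8 muscle fibre markers on the array summed to 103334 to 124041 units over all arrays. The part of these array differences in the results below was not tested.

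Values are log2(intensity + 1) throughout, and differences between groups are on that scale, which understates the change of dim probe sets. Levels of different genes cannot be set against each other, because each probe set binds with its own strength. In a bulk sample, fewer cells of a type and less RNA per cell cannot be told apart.

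No matrix gene passed the test between high and low IMF muscle. By limma with Benjamini-Hochberg adjustment, 0 of the 36 genes were called, and the background was 0 of 14409 probe sets, or 0%. At an unadjusted p under 0.05 the count was 0 of 36, where 1.66% of all probe sets (239) passed. An unpaired t-test gave 0 of 36 as well, against 258 of all probe sets, or 1.79%. Both tests held IMF alone, so their SEs are wider for genes that differ between the series. With the series as a covariate, 1 of 36 genes reached an unadjusted p under 0.05 by limma, against 1057 of all probe sets, or 7.34%. The direction was less even: 29 of the 36 genes had a higher mean in high IMF muscle, while 40.2% of all probe sets did. The median difference over the 36 genes was 0.12, and over all probe sets it was -0.03. The genes were measured in the same bulls, and some moved together from bull to bull, so the 29 are not independent. The count fell to 18 of 36, with a median of 0.0011, without the 4 arrays with high albumin. Those were high IMF 6, 8 and 10 of the S series and low IMF 3 of the other. Without them the IMF groups were not balanced over the series, so that fit mixed IMF with the series. With these arrays left out and the series as a covariate, the count was 28 of 36, with a median of 0.14.

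Among the fibrillar collagens, 5 of 8 tested genes had a higher mean in high IMF muscle. COL3A1, the type III chain found beside type I in the sheaths around fibre bundles, read 11.96 to 13.14 in the 10 high IMF bulls (median 12.75) and 11.52 to 13.56 in the 10 low IMF bulls (median 12.46). The ranges overlapped fully, since the highest and the lowest bull were both of low IMF, although 9 of 10 high IMF bulls lay above the low IMF median. The difference was 0.31 (SE 0.21; limma, p = 0.151, adjusted p = 0.9997). COL5A2 and COL5A3, chains of the type V collagen that starts and thins type I fibrils, differed by 0.24 (SE 0.16) and 0.27 (SE 0.20).

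The 4 small leucine-rich proteoglycans all had higher means in high IMF muscle, and none passed. LUM, which encodes lumican, a keratan sulphate proteoglycan of fibrils, had the largest difference of the 36 genes. It read 8.73 to 9.79 in high IMF (median 9.31) and 8.12 to 10.43 in low IMF (median 8.93), and the difference was 0.38 (SE 0.24, limma p = 0.137, adjusted p = 0.9997), with 8 of 10 high IMF bulls above the low IMF median. BGN, biglycan, differed by 0.19 (SE 0.36), FMOD, fibromodulin, by 0.14 (SE 0.41) and DCN, decorin, by 0.06 (SE 0.19). BGN and FMOD turned below 0 without the arrays with high albumin, at -0.19 and -0.31, and were at 0.18 and 0.04 when the series was also a covariate. FMOD also turned without low IMF 5, high IMF 7 or high IMF 10 (-0.03, -0.01 and -0.0019), and DCN without high IMF 4 or low IMF 9 (-0.01 and -0.02).

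The glycoproteins and elastic fibre genes had 7 of 7 means higher in high IMF muscle, with a median difference of 0.26. SPARC, a collagen-binding protein secreted by fibroblasts and also by fat cells, differed by 0.33 (SE 0.29), FN1, fibronectin, by 0.29 (SE 0.22) and TNC, tenascin C of tendon junctions and regenerating muscle, by 0.23 (SE 0.14). With the series as a covariate, TNC was the 1 gene of the 36 to reach an unadjusted p under 0.05 (limma, p = 0.0380, adjusted p = 0.676), where 7.34% of all probe sets did. The second probe set of TNC gave a difference of -0.09. The second set of FN1, a dim one, gave 0.46 (SE 0.19; limma, p = 0.0250, adjusted p = 0.9997). SPARC was at -0.02 without the arrays with high albumin and at 0.19 when the series was also a covariate.

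Basement membrane genes were nearly level. The means of 4 of 6 were higher, with a median of 0.05: NID1, nidogen 1, which bridges laminin and type IV collagen, differed by 0.11 (SE 0.25), COL15A1 by 0.07 (SE 0.17), COL4A3 by 0.06 (SE 0.13) and COL4A1, the main type IV chain, by 0.04 (SE 0.16). Of the other collagens, COL6A1 differed by 0.12 (SE 0.20) and COL9A1, a cartilage collagen, by 0.11 (SE 0.18). COL6A2, the partner chain of COL6A1 in type VI collagen, went the other way. Its range was 8.997 to 9.27 in high IMF and 8.92 to 9.58 in low IMF, no high IMF bull reached the low IMF median, and the difference was -0.14 (SE 0.09, limma p = 0.140). Its second probe set gave 0.14, so the sign depended on the probe set. The signs of COL4A1, COL6A1, COL9A1, COL15A1, COL4A3 and NID1 also turned under at least 1 other setting.

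Among the enzymes and inhibitors, 4 of 4 means were higher. TIMP3, the inhibitor that stays bound to the matrix, read 7.80 to 8.31 in high IMF (median 7.98) and 7.48 to 8.18 in low IMF. The groups overlapped, yet 10 of 10 high IMF bulls lay above the low IMF median, and the difference was 0.16 (SE 0.11, limma p = 0.148). TIMP2 differed by 0.17 (SE 0.23) and MMP2, gelatinase A, by 0.11 (SE 0.43), and both were below 0 without the arrays with high albumin (-0.01 and -0.34) and above 0 when the series was also a covariate (0.23 and 0.17). With the series as a covariate the SE of the MMP2 difference was 0.15.

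The clearest division of the matrix genes was between the 2 series, a comparison over the same 20 bulls as that of IMF. With IMF group in the model, 22 of the 36 genes (61.1%) were called by limma at an adjusted p under 0.05, 20 higher and 2 lower in the S series. The background was 68.3% of all probe sets, 33.4% higher and 34.8% lower, so the total share is near that of any probe set. Over the 36 genes the median difference was 0.39, against -0.0025 over all probe sets, and the median size without sign was 0.44 against 0.42. Of the matrix genes 24 had a higher mean in the S series, as did 49.9% of all probe sets. With the second probe set of each gene that has one, the median was 0.12 and 18 genes were called.

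**Figure D1:**
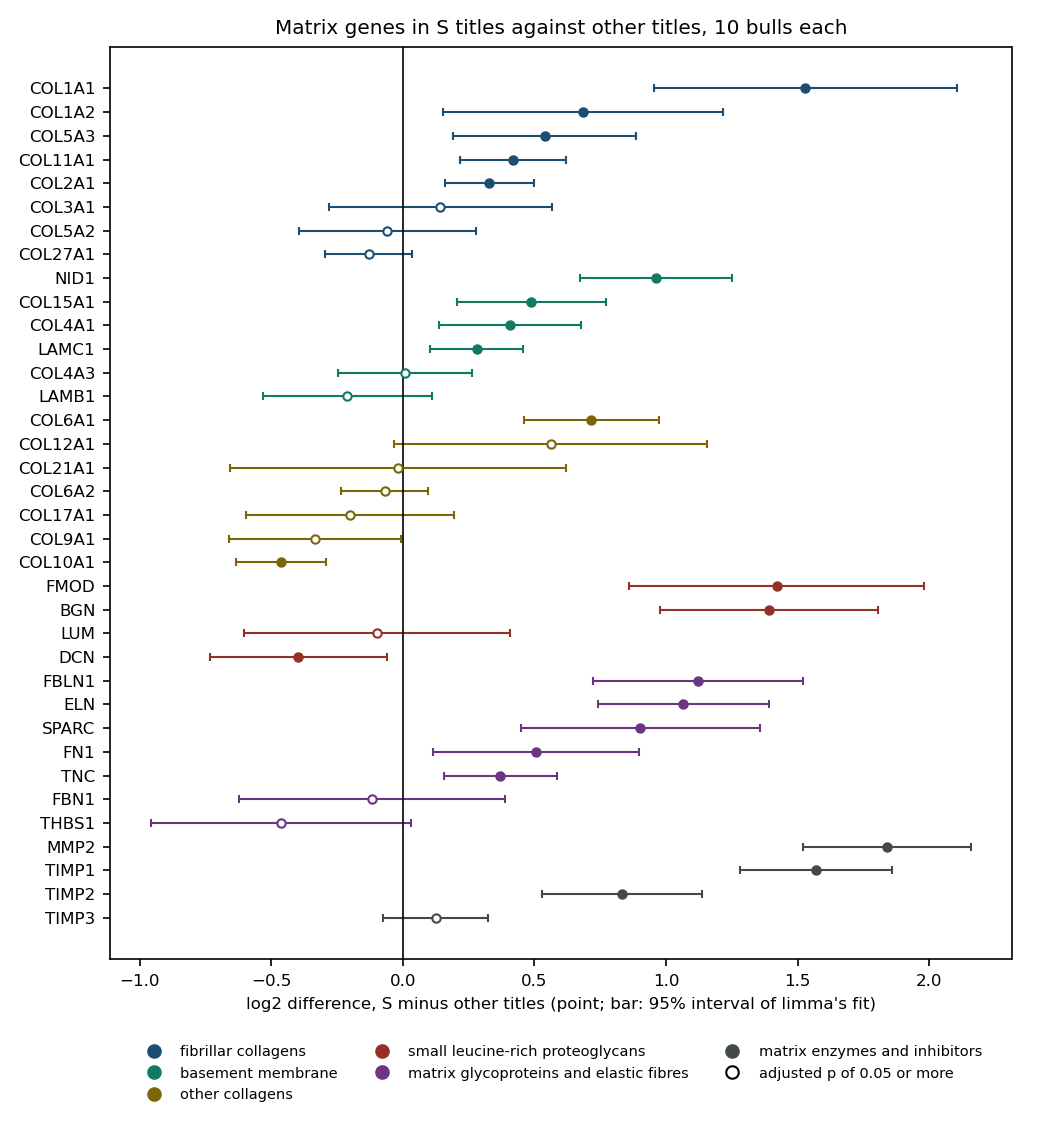
Difference between the S series and the other series for the 36 tested matrix genes, grouped by role (x axis: log2 difference with its 95% interval from limma; 10 bulls in each series). Filled points passed an adjusted p under 0.05; MMP2 at 1.84 stands farthest to the right and COL10A1 at -0.46 is the lower of the 2 called below 0.

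The enzymes and inhibitors differed most. MMP2 read 7.71 to 8.89 in the S series (median 8.57) and 6.09 to 7.33 in the other series (median 6.53). Every S bull was above every other bull, and the difference was 1.84 (SE 0.15, a 3.58-fold ratio on this scale; limma, adjusted p = 3.50e-09). TIMP1, a secreted inhibitor of many metalloproteinases, did the same, with 7.85 to 8.80 against 6.20 to 7.43, a difference of 1.57 (SE 0.14, 2.97-fold, limma adjusted p = 7.64e-09). TIMP2, which binds MMP2 and takes part in its activation, read 9.65 to 10.71 against 8.66 to 9.90 and rose by 0.83 (SE 0.15, limma adjusted p = 4.32e-05). TIMP3 was not called (0.12, SE 0.10). MMP2 and TIMP1 were 2 of the 3 matrix genes whose series did not overlap, where 19.6% of all probe sets did not overlap, 10.4% being higher in the S series.

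The fibrillar collagens split by chain. COL1A1, the alpha 1 chain of type I collagen, read 8.07 to 9.28 in the S series (median 8.90) and 5.75 to 8.93 in the other series (median 7.44). Low IMF 1 at 8.93 was the only bull of the other series to reach into the S range; the next, high IMF 4, read 8.04. The difference was 1.53 (SE 0.28, 2.89-fold, limma adjusted p = 5.91e-05). A second COL1A1 probe set, too dim to be tested, differed by 0.07. COL1A2, the alpha 2 chain, which joins 2 alpha 1 chains in type I collagen, read 10.64 to 11.97 against 9.79 to 12.44 and differed by 0.69 (SE 0.26, limma adjusted p = 0.0224), and its second probe set by 0.12 (SE 0.33). COL3A1 read 11.92 to 13.08 against 11.52 to 13.56 and was not called (0.14, SE 0.20). COL5A3 (0.54), COL11A1 (0.42, SE 0.10) and COL2A1 (0.33, SE 0.08) were called higher, the last 2 being chains best known from cartilage. The second probe sets of those 2 were not called, with 0.10 (SE 0.10) for COL11A1 and 0.26 (SE 0.16) for COL2A1. COL5A2 at -0.06 and COL27A1 at -0.13 were not called. COL1A2, COL5A2, COL5A3 and COL27A1 lie outside the naming rule for this comparison and were chosen after their values were seen.

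Of the basement membrane genes, 4 of 6 (66.7%) were called and all 4 were higher in the S series, a share near the 68.3% of all probe sets. NID1 read 9.70 to 10.71 in the S series and 8.52 to 9.71 in the other, where a single S bull, low IMF 9 at 9.70, lay within the range of the other series. The difference was 0.96 (SE 0.14, 1.95-fold, limma adjusted p = 4.09e-06). COL15A1, which lies at the outer face of basement membranes, differed by 0.49 (SE 0.14), COL4A1 by 0.41 (SE 0.13) and LAMC1, the laminin gamma 1 chain, by 0.28 (SE 0.08). The second probe sets gave 0.75 for COL15A1, 1.103 for COL4A1 and -0.11 for LAMC1. COL4A1 did not pass without the arrays with high albumin (limma adjusted p = 0.0982). LAMB1, the laminin beta 1 chain, had a difference of -0.21 (SE 0.15) and was not called, and COL4A3 had 0.01; LAMB1 was named after its values were seen.

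In type VI collagen the brightest probe sets of the partner chains differed. COL6A1 read 10.86 to 11.64 in the S series and 10.04 to 11.27 in the other, with a difference of 0.72 (SE 0.12, 1.64-fold, limma adjusted p = 3.31e-05). The COL6A1 sets ranked 2 and 3 by brightness, too dim to be tested, differed by -0.32 and 1.23. COL6A2 differed by -0.07 (SE 0.08), and its second probe set by -0.32 (limma adjusted p = 0.00190). COL10A1, a collagen best known from growth plate cartilage, was lower in every S bull (5.66 to 6.16) than in any other bull (6.24 to 6.82), by -0.46 (SE 0.08, limma adjusted p = 4.98e-05). Of all probe sets 9.27% were lower in the S series without overlap. COL9A1 was lower by -0.33 (SE 0.16) and did not pass (limma adjusted p = 0.0663), and it was called without high IMF 1, high IMF 7, low IMF 2 or low IMF 7 (limma adjusted p = 0.0291 to 0.0455).

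The small leucine-rich proteoglycans went both ways. BGN read 6.89 to 8.20 in the S series (median 7.97) and 5.45 to 7.14 in the other (median 6.40), a difference of 1.39 (SE 0.20, 2.63-fold, limma adjusted p = 3.73e-06); its second probe set gave 0.40. FMOD, a proteoglycan with a role in collagen cross-linking, read 8.69 to 10.12 against 7.01 to 9.02, a difference of 1.42 (SE 0.27, 2.68-fold). DCN was lower in the S series, at 10.60 to 11.62 against 11.06 to 12.39, by -0.40 (SE 0.16, limma adjusted p = 0.0350). The DCN call was not firm: it was lost in 9 of the 20 fits without 1 array (low IMF 1, 3, 4, 7, 8 or 9 or high IMF 4, 8 or 9, limma adjusted p = 0.0505 to 0.0724), without the 4 arrays with high albumin (limma adjusted p = 0.0834), without the filter on dim probe sets (limma adjusted p = 0.0540) and after median-centring of the arrays (limma adjusted p = 0.0708). LUM did not differ beyond the spread (-0.10, SE 0.24).

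Of the matrix glycoproteins and elastic fibre genes 5 of 7 (71.4%) were called, all higher, a share near the 68.3% of all probe sets. FBLN1, fibulin 1 of elastic fibres and basement membranes, read 9.15 to 10.90 in the S series and 8.28 to 9.72 in the other, a difference of 1.12 (SE 0.19, 2.18-fold, limma adjusted p = 3.16e-05), and its second probe set gave 1.55. ELN, elastin, read 7.11 to 8.05 against 5.80 to 7.34, a difference of 1.07 (SE 0.16, 2.09-fold). The second ELN probe set gave 0.06 (SE 0.11), so the elastin difference was seen by a single probe set. SPARC read 10.18 to 11.81 against 9.08 to 11.03 and differed by 0.90 (SE 0.22, 1.87-fold, limma adjusted p = 0.00109). In low IMF bulls alone the SPARC difference was 0.49 (SE 0.29) and was not called (limma adjusted p = 0.160). FN1 (0.51) and TNC (0.37) were called too. FBN1, fibrillin 1, at -0.12 and THBS1, thrombospondin 1, at -0.46 were not; the THBS1 p, adjusted by limma, was 0.0881. FN1, TNC, FBN1 and THBS1 were named here after their values were seen.

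**Figure D2:**
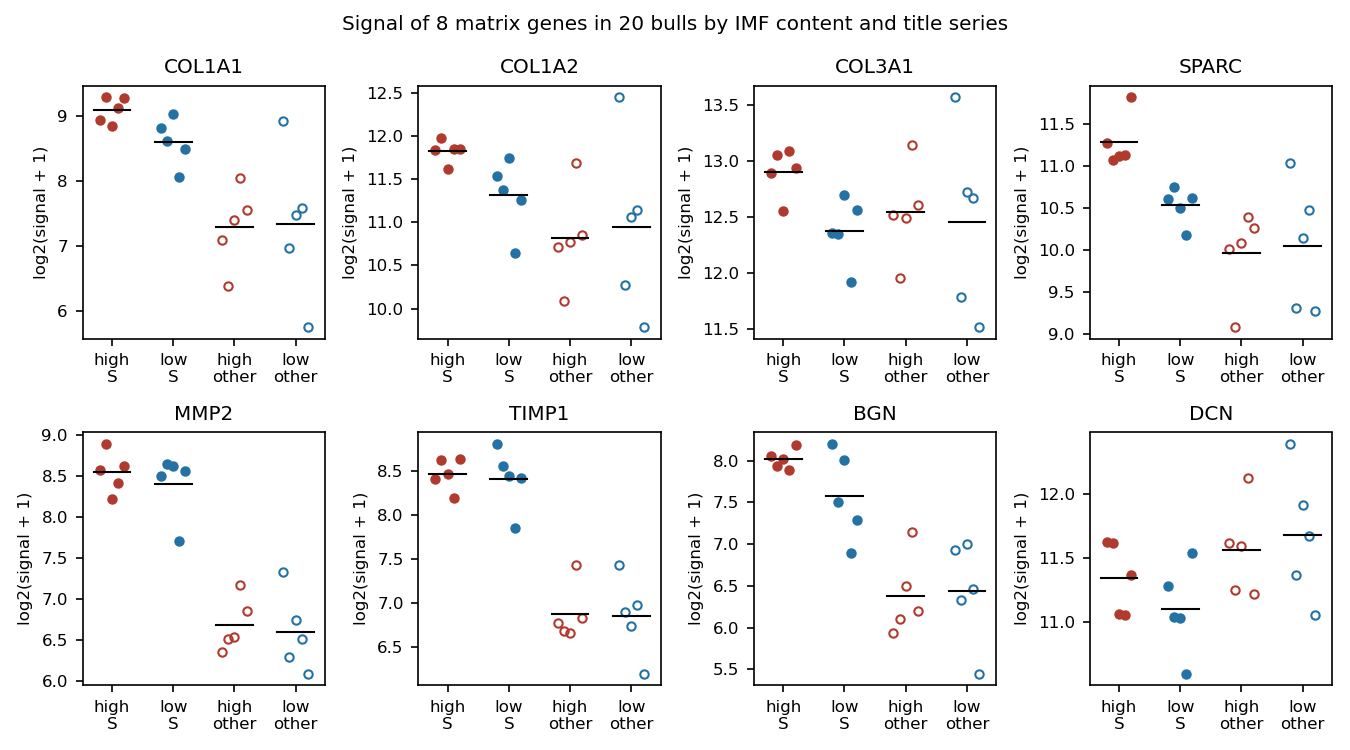
Value of 8 matrix genes in each of the 20 bulls (y axis: log2(intensity + 1), a separate scale per gene; points: bulls; lines: group means) by IMF group and title series. MMP2 and TIMP1 separate the series without overlap, while SPARC separates high from low IMF in the S series and not in the other.

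A second tested probe set existed for 17 of the 36 genes. The brightest and the second set were both called higher in the S series for 7 genes. Of the others, 2 genes were called by neither, and 8 by only 1 of the sets. In no gene were these sets called in opposite directions, but dimmer sets were not part of this count. The LAMC1 sets ranked 3 and 4 by brightness, also tested, differed by -0.40 (SE 0.14) and -0.26 (SE 0.15). These SEs are from the fit without the filter on dim probe sets. The brightest LAMC1 set was higher by 0.28, and those ranked 5 and 6, too dim to be tested, by 0.18 and 0.30. THBS1 and COL6A2 were the 2 genes called lower by the second set alone. For IMF 0 of the 17 second sets were called by limma, and 2 reached an unadjusted p under 0.05, those of FN1 and LAMC1 (0.25, SE 0.11).

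Because the series differed, the IMF difference was also taken within each of them, which share no animals. In the S series 0 of 36 genes passed by limma after adjustment, and 1 did at an unadjusted p under 0.05, where 9.90% of all probe sets (1427) did. The median difference was 0.18 with 29 of 36 means higher, against -0.08 and 32.5% over all probe sets. In the other series 0 genes passed on either count, 3.38% of all probe sets (487) reaching an unadjusted p under 0.05. There the median was 0.02 with 21 of 36 higher, against 52.6% over all probe sets. The count in the other series was set by single bulls: it was 11 without low IMF 5 and 28 without low IMF 1. The second probe set of FN1 differed by 0.66 (SE 0.13) in the other series (limma, p = 4.49e-05, adjusted p = 0.647) and by 0.26 (SE 0.13) in the S series, while the first gave 0.11 (SE 0.27) and 0.48 (SE 0.27), so the order of the series depended on the probe set. These second sets were named after their values were seen.

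The gene that reached an unadjusted p in the S series was SPARC. The high IMF bulls 6 to 10 read 11.28, 11.07, 11.12, 11.13 and 11.81, and the low IMF bulls 6 to 10 read 10.60, 10.75, 10.50, 10.18 and 10.62. The groups did not overlap, which held for SPARC alone of the 36 genes. Among all probe sets 22 (0.153%) did not overlap with high IMF above, and 170 with low IMF above. The difference was 0.75 (SE 0.29, 1.68-fold; limma, p = 0.0173, adjusted p = 0.456). High IMF 7 and 9, the bulls of that group without high albumin, were also above all 5 low IMF bulls. In the other series the high IMF bulls 1 to 5 read 10.01, 9.08, 10.08, 10.39 and 10.26 and the low IMF bulls 11.03, 9.31, 10.14, 10.48 and 9.27, so the groups overlapped, and the difference was -0.08 (SE 0.29). The difference between the series, tested as an interaction, was 0.83 (SE 0.41; limma, p = 0.0548, adjusted p = 0.866).

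Of the 8 fibrillar collagens, 7 had higher means in high IMF in the S series and 3 in the other, and none separated the IMF groups without overlap. COL3A1 in the S series read 12.89, 13.05, 12.55, 13.08 and 12.94 in high IMF and 12.36, 12.35, 12.70, 11.92 and 12.56 in low IMF. All but high IMF 8 were above every low IMF bull, and the difference was 0.53 (SE 0.29, limma p = 0.0834), against 0.09 (SE 0.29) in the other series. COL5A2 differed by 0.45 (SE 0.22) in the S series and 0.02 (SE 0.22) in the other, COL1A2 by 0.51 and -0.12, and COL1A1 by 0.50 and -0.05. COL5A3 went the other way, with 0.18 (SE 0.24) in the S series and 0.35 (SE 0.24) in the other, and COL2A1 differed by -0.15 (SE 0.12) in the S series. Outside the fibrillar collagens, FMOD differed by 0.54 (SE 0.37) against -0.26 (SE 0.37), and COL12A1, a collagen that decorates fibrils, by 0.42 against -0.30. COL1A1, COL1A2, COL2A1 and COL12A1 were chosen here after their values were seen. No interaction passed after adjustment by limma: 0 of 36 genes, and 0 at an unadjusted p under 0.05, where 5.34% of all probe sets (769) were. The interaction was positive for 27 of 36 genes with a median of 0.15, and for 30.7% of all probe sets with a median of -0.11.

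**Figure D3:**
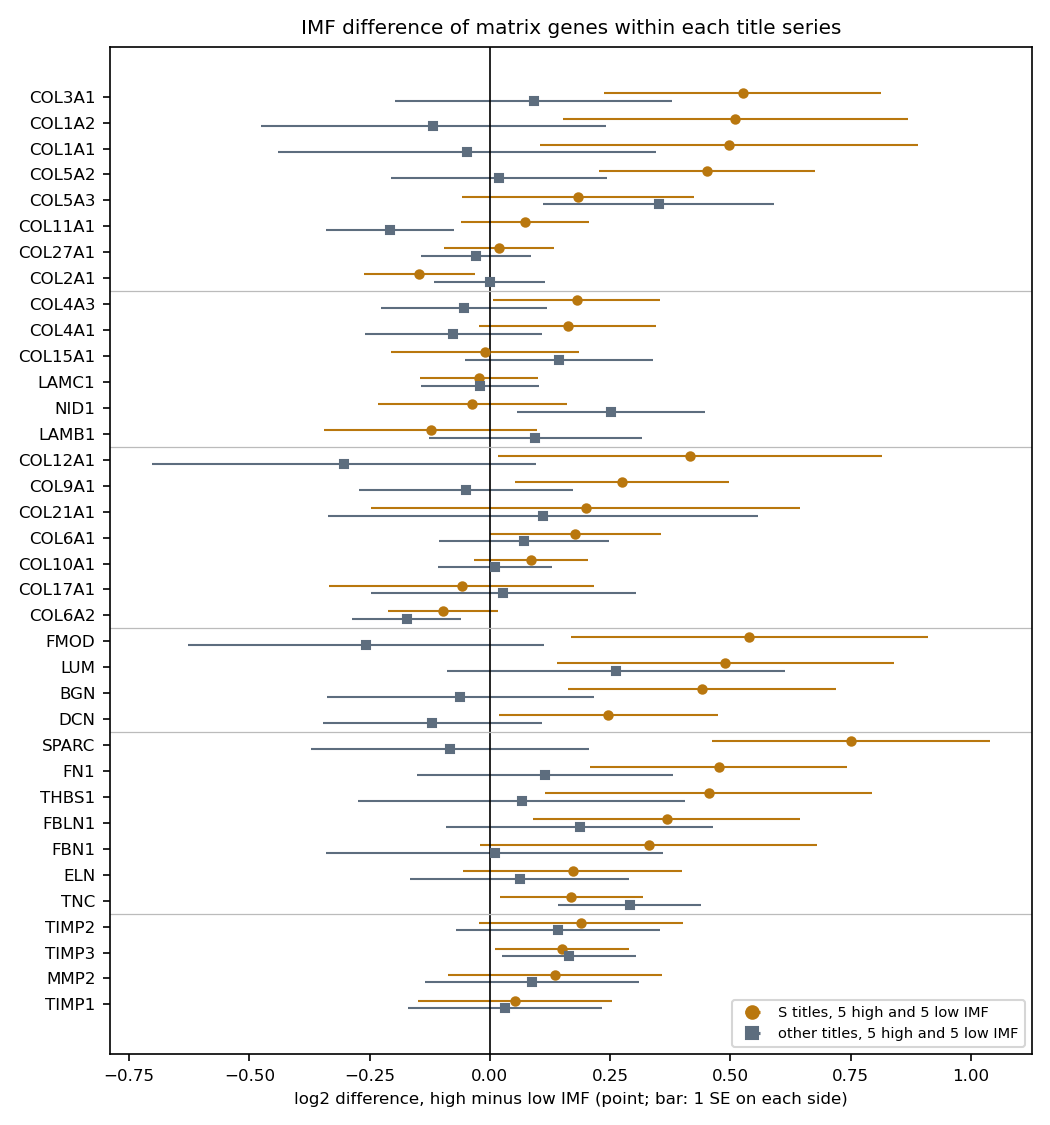
High minus low IMF difference of the 36 matrix genes within the S series (circles) and within the other series (squares), on the x axis as a log2 difference with 1 SE to each side and 5 bulls per group. SPARC at 0.75 in the S series is the 1 gene to reach an unadjusted p under 0.05.

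A few bulls were high or low for many matrix genes at once. Each value was set against the mean of the bull's own series. In the other series low IMF 1 was the highest bull for 16 of the 36 genes, with a median deviation of 0.49, although its median deviation over all probe sets was 0.02 and it was highest for 7.96% of them. Low IMF 5 was the lowest for 18 genes, with a median deviation of -0.64, against -0.05 and 15.0% over all probe sets. These extremes were thus of the same IMF group. In the S series low IMF 9 was lowest for 20 genes (median deviation -0.50, lowest for 8.97% of all probe sets), and high IMF 7 was highest for 11 (median deviation 0.29, against 0.08 and highest for 8.44% of all probe sets). High IMF 4 of the other series lay above the series mean for 28 of the 36 genes (median deviation 0.31). High IMF 10 of the S series did so for 31 (median deviation 0.19). In most other bulls the genes lay on both sides of the series mean. The median SD within a series was 0.37 for the 36 genes and 0.25 for all probe sets.

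**Figure D4:**
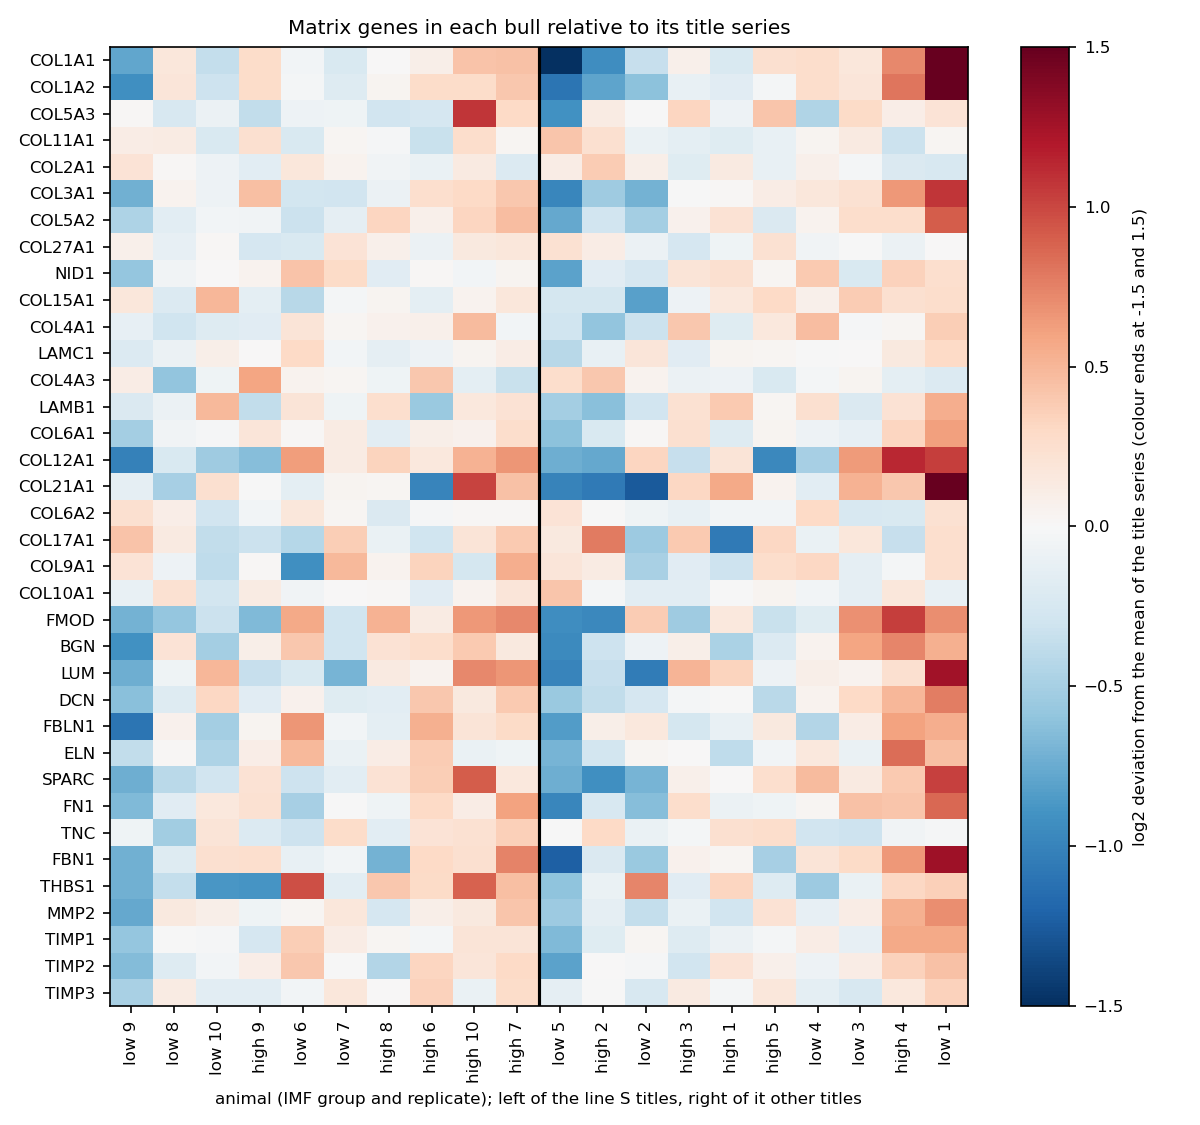
Deviation of each of the 36 matrix genes (rows, by role) in each bull (columns, ordered by their median deviation within a series) from the mean of its title series, as a log2 colour scale ending at -1.5 and 1.5. Low IMF 9 and low IMF 5 are the lowest columns and high IMF 7 and low IMF 1 the highest of the S and the other series.

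Relations between partner genes were computed within each series of 10 bulls, 18 relations over 9 pairs. Permutation p-values were adjusted over the 18, and those printed beside r and rho are of r unless said otherwise. The chains of type I collagen moved nearly in step: COL1A1 and COL1A2 had r = 0.97 (rho 0.98) in the S series and r = 0.97 (rho 0.99) in the other, with r = 0.92 and 0.95 without the 2 bulls farthest from the median. Both permutation p-values were 1e-05, the smallest that 100000 resamples can give, or 9e-05 adjusted. COL3A1 followed COL1A2 with r = 0.92 (rho 0.92, permutation p = 0.00035, adjusted 0.00105) and r = 0.98 (rho 0.96, permutation p = 2e-05, adjusted 0.00012), and 0.85 and 0.96 without the farthest bulls. COL3A1 and COL1A1 gave r = 0.90 and 0.95 (rho 0.88 and 0.94, adjusted permutation p = 0.00165 and 0.000315), and 0.81 and 0.88 without the farthest bulls. The values of 1 bull share its array and RNA preparation.

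SPARC and COL3A1 gave r = 0.75 and 0.94 (rho 0.66 and 0.89, adjusted permutation p = 0.0183 and 0.00105), and r = 0.63 and 0.94 without the farthest bulls. The proteoglycans LUM and DCN gave r = 0.76 and 0.79 (rho 0.73 and 0.71, adjusted permutation p = 0.0177 and 0.0136), and r = 0.72 and 0.70 without the farthest bulls. MMP2 and its inhibitor TIMP2 gave r = 0.78 and 0.76 (rho 0.44 and 0.67, adjusted permutation p = 0.0150 and 0.0163). The S value of r rested on 2 bulls, since it was 0.09 without them, while the other was 0.61. Tested by rho, the adjusted permutation p of MMP2 and TIMP2 was 0.262 in the S series and 0.07 in the other. In the same order it was 0.0723 and 0.00339 for SPARC and COL3A1, and 0.0473 and 0.0549 for LUM and DCN. Those above 0.05 did not pass.

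Not all partners moved together. COL6A1 and COL6A2 gave r = -0.27 in the S series and -0.13 in the other (rho -0.22 and -0.21, adjusted permutation p = 0.464 and 0.726), and 0.37 and -0.38 without the farthest bulls. LAMB1 and LAMC1, chains of one laminin trimer, gave r = 0.46 and 0.56 (rho 0.43 and 0.44, adjusted permutation p = 0.199 and 0.107), and 0.43 and 0.15 without the farthest bulls. COL3A1 and the fat cell gene FABP4 gave r = 0.58 and 0.57 (rho 0.38 and 0.44, adjusted permutation p = 0.106 and 0.106), and 0.47 and 0.08 without the farthest bulls, so neither passed.

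Although the type I and III chains moved together within a series, the distance between their probe sets differed between series. COL1A1 minus COL1A2 was -2.72 ± 0.10 (SD, n = 10) in the S series and -3.56 ± 0.22 (SD, n = 10) in the other. The ranges did not overlap, at -2.90 to -2.56 and -4.03 to -3.29. The shift was 0.84. COL1A2 minus COL3A1 shifted by 0.54, with ranges that overlapped (-1.30 to -0.82 and -1.87 to -1.12), and COL1A1 minus COL3A1 by 1.39. BGN minus DCN shifted by 1.79, from -5.68 to -4.91 in the other series to -4.24 to -3.03 in the S series. These 4 gaps were chosen because the series differences of their genes were seen to be unequal, so they are a description with no test. The distance itself has no meaning, only its shift. The gaps use the brightest probe sets, and the size of a shift depended on that choice. Between the series the second sets differed by 0.12 for COL1A2, -0.02 for COL3A1 and 0.40 for BGN. Their first sets differed by 0.69, 0.14 and 1.39. The second COL1A1 set, too dim to be tested, differed by 0.07, and the first by 1.53.

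**Figure D5:**
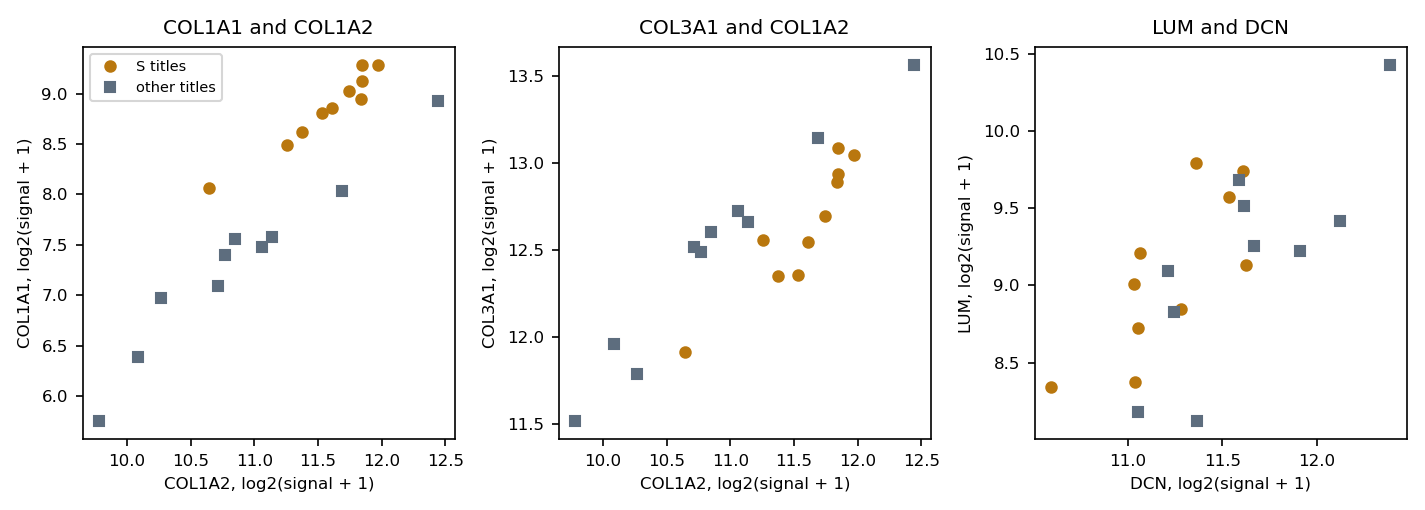
COL1A1 against COL1A2, COL3A1 against COL1A2 and LUM against DCN in 20 bulls (axes: log2(intensity + 1); points: bulls, by title series). In the first panel both series lie along lines with r = 0.97 and are set apart by a shift of 0.84, and in the last r is 0.76 in the S series and 0.79 in the other.

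Genes that build, sense or cut the matrix were counted from lists of general knowledge. For the collagen processing enzymes and chaperones, 26 symbols were listed, older names of some genes among them, and 17 were tested. None was called for IMF by limma, and 14 of 17 means were higher in high IMF muscle (median 0.08). SERPINH1, the collagen chaperone HSP47, differed by 0.45 (SE 0.21; limma, p = 0.0424, adjusted p = 0.9997), and PLOD3, a lysyl hydroxylase, by 0.15 (SE 0.15). Between the series 12 were higher and 3 lower in the S series, with a median of 0.67, where 33.4% of all probe sets were higher and 34.8% lower. P3H1, a prolyl 3-hydroxylase, was higher by 1.02 (SE 0.12, 2.03-fold, limma adjusted p = 1.98e-07), and PLOD1 was lower by -0.64 (SE 0.07, limma adjusted p = 6.15e-08). The other 2 that were lower, named after their values were seen, were PLOD2 at -0.83 and P4HA1, a prolyl 4-hydroxylase subunit, at -0.98.

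Among 9 tested genes of TGF-beta signalling, the main fibrogenic pathway, 2 were higher and 4 lower in the S series, and 0 were called for IMF by limma. These shares, like those of the receptors and proteases that follow, lie near or below the 68.3% of all probe sets called between the series. SMAD4, the shared SMAD, was lower by -0.62 (SE 0.09) and TGFB2 by -0.65 (SE 0.13), while for IMF SMAD3 differed by -0.16 (SE 0.19) and TGFB3 by 0.12 (SE 0.17). Of 11 matrix receptors, 5 were higher and 2 lower in the S series, and 0 were called for IMF. ITGB1, the beta 1 integrin shared by the collagen and laminin receptors, was lower by -0.80 (SE 0.09, limma adjusted p = 1.24e-07), and the syndecan SDC3 was higher by 0.55 (SE 0.10). For IMF SDC2 differed by 0.21 (SE 0.14) and CD44 by 0.20 (SE 0.22). Of 10 proteases and related genes, 3 were higher and 2 lower. MMP14, the membrane protease that activates MMP2, was lower by -0.65 (SE 0.09, limma adjusted p = 2.61e-06), opposite to MMP2 itself, and PLAT, tissue plasminogen activator, was higher by 0.82 (SE 0.12). For IMF, where 0 were called, MMP16 differed by -0.24 (SE 0.15) and TIMP4 by 0.27 (SE 0.21).

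Cell type markers are given beside these values, with 33.4% of all probe sets called higher and 34.8% lower as the background. Of 11 fibroblast markers 5 were higher and 1 lower in the S series (median 0.45), and their summed signal ran from 6816 to 11753 units there and from 3750 to 9292 in the other. The single lower marker was THY1 at -1.95 (SE 0.14), while GSN was higher by 1.20 (SE 0.10) and the receptors PDGFRA and PDGFRB were not called (-0.05 and 0.11). All 4 tested adipocyte markers of 7 listed were higher (median 1.71). The 6 on the array summed to 408 to 20513 units in the S series and 229 to 4332 in the other. All 3 tested macrophage markers of 6 listed were higher (median 1.12), and the 4 on the array summed to 401 to 747 and 152 to 614. Of 7 smooth muscle and pericyte markers 2 were higher and 3 lower, of 6 endothelial markers 3 were higher, both Schwann cell markers were lower, and of 8 muscle fibre markers 2 were higher and 2 lower. The 1 tested tendon marker, THBS4, was higher by 0.75, and the 2 cartilage markers were not called. The markers named here were chosen after their values were seen.

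For IMF none of these markers was called by limma. The 4 tested adipocyte markers had a median difference of 1.80, and 3 of them reached an unadjusted p under 0.05. The 6 on the array summed to 1047 to 20513 units in high IMF and 229 to 9002 in low IMF. The 11 fibroblast markers had a median of 0.07 with 9 higher, and summed to 4726 to 11753 units in high IMF and 3750 to 10197 in low IMF. The 6 endothelial markers had a median of -0.15, with 0 higher. The part of the fibroblast, fat cell and other markers in the differences of the matrix genes was not tested.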

How the data were processed

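Total RNA of 20 bulls was measured with 1 Affymetrix cattle array each. The authors deposited 1 intensity on a linear scale for each probe set, as read from the table itself; per the submitters' processing notes GCOS 1.1.1 and Affymetrix Expression Console 1.1 were used. The summary of probes, the scaling and the genome build are not given in the sources used here, and no detection call was used. The number of arrays limits the precision.

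Of 24128 probe sets 112 controls were removed. Intensities were taken as log2(value + 1) with their deposited scaling, and the 40% of probe sets dimmest on average were left out, which kept 14409. Symbols came from the platform annotation (13318 probe sets had 1, 86 several and 10724 none), and the probe set with the highest mean stood for a gene. Groups came from the IMF label and the S in the titles. Each gene was tested in a fit over all probe sets with limma 3.58.1 in R 4.3.3 (lmFit, eBayes, two-sided, Benjamini-Hochberg at 0.05): IMF alone, series with IMF as a term, and IMF within series with its interaction in a model of 4 groups. The fit was tested on simulated data. The series text names a paired t-test, but the labels pair no animals, so fits were unpaired.

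The rule named, in each role, the gene with the highest mean and the 3 with the smallest p in the IMF and the series comparison, and in each pathway list the 2 with the smallest p. Genes, lists and alternatives were chosen with earlier results of these data known. Relations were computed within each series, since 68.3% of all probe sets were called between the series. After the data were seen, 3 of the 9 pairs, the 4 gaps, the fits without 1 array and 1 combined setting were added. P-values of relations are two-sided permutation tests (100000 resamples, scipy 1.17.1).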

Additional observations from a re-analysis of the deposited data

Results flagged for a closer look

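Each of the 36 genes was checked in the 10 high and in the 10 low IMF bulls, 72 groups in all, for a single bull far from the rest of its group, and 2 were found. Chance alone marks about 1 in 20 such groups. THBS1, thrombospondin 1, read 8.1693 in high IMF 9 of the S series, the lowest of the high IMF bulls, and the next was at 9.32. That gap was 0.652 of the range of the group. DCN, decorin, read 12.1198 in high IMF 4 of the other series, the highest of its group, above the next at 11.62, a gap of 0.4662 of the range. The check pooled the series within an IMF group, and that next bull, high IMF 6, was of the S series. Within the other series low IMF 1 read higher than high IMF 4, at 12.39. Without high IMF 4 the DCN difference between high and low IMF was -0.01 in place of 0.06.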

How the results depend on the processing

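No call for IMF was made among the 36 genes under any setting tried. Without the 4 arrays with high albumin, 18 genes in place of 29 had higher means in high IMF, and the difference was -0.19 for BGN, -0.14 for COL4A1 (-0.0635 with the series as a covariate), -0.0480 for COL6A1, -0.31 for FMOD, -0.34 for MMP2, -0.12 for NID1, -0.0182 for SPARC and -0.0121 for TIMP2. Without those arrays the IMF groups were not balanced over the series. With the series as a covariate too, COL4A1 alone of these 8 stayed below 0. Without the 2 arrays with the lowest medians (high IMF 6 and 9) the difference was -0.0043 for BGN, -0.0533 for COL4A3, -0.11 for MMP2 and -0.0073 for NID1. With second probe sets it was 0.14 for COL6A2 and -0.0939 for TNC; between series it was -0.0227 for COL3A1 and -0.11 for LAMC1, and the median over the genes was 0.12. COL3A1 was at -0.0754 between series in low IMF bulls alone, and the r of COL6A1 and COL6A2 in the S series was 0.13 with arrays centred on their medians. Leaving out 1 array at a time gave IMF differences of -0.0464 to 0.15 for COL15A1, -0.0298 to 0.13 for COL4A1, -0.0018 to 0.17 for COL9A1, -0.0246 to 0.17 for DCN, -0.0340 to 0.34 for FMOD, -0.0451 to 0.25 for MMP2 and -0.0283 to 0.22 for NID1. Within the other series it gave 0 to 1 probe sets called (1 without high IMF 4) and 11 to 28 genes with higher means. Between series it called 21 to 23 of the 36 genes. In bulls of 1 IMF group alone, 16 of the 36 genes were called in each; COL11A1 (limma adjusted p = 0.0822), COL4A1 (0.189), LAMC1 (0.0579) and SPARC (0.160) were not called in low IMF, nor COL15A1 (0.0820), COL2A1 (0.0686), DCN (0.441) and LAMC1 (0.0606) in high IMF, each a contrast of 10 bulls. The causes were not tested. No paired analysis was possible because the labels pair no animals.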
